A study of Homo sapiens with 12 samples.

Results

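The genes described here are 47 cyclins, cyclin-dependent kinases (CDKs), CDK inhibitors and direct CDK regulators, taken by symbol from the 59276 gene symbols of a deposited RNA-seq table. The D-type cyclins and CDKN1A were left out of the list. Of the 47, 11 were cyclins and CDKs of the cell cycle, 15 were transcriptional cyclins and CDKs, 7 were other cyclins and CDKs, 6 were CDK inhibitors and 8 were regulators of CDK1 and CDK2. All 12 samples came from JJN3, a human multiple myeloma cell line, in 4 groups of 3 replicates. The first 2 groups were JJN3 cells given the vehicle DMSO, or MS023 at 10 µM, an inhibitor of type I protein arginine methyltransferases, for 3 days. The other 2 groups were JJN3 cells made to express Cas9 by lentivirus, which also carried a doxycycline-inducible guide RNA from a second, selected lentivirus. The guide was a control in isgCtrl and was directed at PRMT1, the main type I arginine methyltransferase, in iPRMT1, called PRMT1-KO here. Both guide groups had been induced with doxycycline for 3 days. The knockout was measured in a cell population. The labels do not say whether the replicates were separate cultures, so the spread between them may be technical.

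Cyclins are the subunits that switch on CDKs. Cyclin E with CDK2 drives entry into S phase, cyclin A acts in S phase and G2, and cyclin B with CDK1 starts mitosis, while CDK4 and CDK6 act earlier in G1 with the D-type cyclins. INK4 and Cip/Kip proteins block these kinases, WEE1 and PKMYT1 hold CDK1 and CDK2 off by phosphorylation, and the CDC25 phosphatases release them. A separate branch of the family, which includes CDK7, CDK8, CDK9, CDK12 and CDK13 with their own cyclins, phosphorylates RNA polymerase II or the Mediator complex and serves transcription. In multiple myeloma, D-type cyclins, CDKN2C and CKS1B are known sites of altered copy number or expression.

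PRMT1 mRNA was read first, as a check of the guide labels. It stood at 867, 863 and 849 TPM (transcript abundance scaled for length and to a fixed total per sample) in isgCtrl and at 302, 309 and 301 TPM in PRMT1-KO. The knockout samples held 35.4% of the control mRNA level, with a log2 fold change of -1.50 (SE 0.04, adjusted p = 0.00072, limma with Benjamini-Hochberg adjustment). This mRNA level does not measure the remaining protein, for which the paper shows a western blot and reports efficient deletion. Every fold change given is a difference in log2(TPM+1), a scale that understates the change of genes at a few TPM. Summed over 8 plasma cell markers, the samples held 716 to 755 TPM in DMSO, 1153 to 1197 with MS023, 653 to 667 for isgCtrl and 627 to 631 for PRMT1-KO. MZB1 and SLAMF7 were among those 8 and were low in both guide groups, at 0.149 to 2.42 TPM against 8.71 to 107 TPM in DMSO. The 8 did not move alike. In isgCtrl against DMSO the log2 fold change was below 0 for 5, with CD38 at -1.37, and above 0 for 3, with IRF4 at 0.72. In MS023 against DMSO it was above 0 for 6 and below 0 for 2, with CD38 at -0.88. Of 12 markers of other blood and stromal cells, 2 to 4 had a group mean above 1 TPM, CD3G was at 0 in every sample, and their sum ran from 70.6 to 96.7 TPM, most of it EPCAM. Whether these shifts bear on the genes below was not tested.

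In DMSO the 47 genes ran from 528 TPM for CKS1B, which binds CDKs and the SKP2 ubiquitin ligase, down to 0.221 TPM for CCNA1, the germ cell cyclin A. TPM is a value per length, so levels of different genes can be set side by side. After CKS1B came CKS2 at 482 TPM, the INK4 inhibitor CDKN2C at 276, CDK4 at 174, CCNB1 at 155 and CDKN2A at 139. CCNA1 stayed between 0.0380 and 0.366 TPM in all 12 samples and was below the level required for testing, which was a group mean of log2(TPM+1) above 1. The other 46 genes were tested.

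MS023 lowered 17 and raised 3 of the 46 genes tested, with a call meaning a Benjamini-Hochberg adjusted p under 0.05 in limma and an absolute log2 fold change above 0.48. These 20 genes are 43.5% of those tested, against 30.9% of all 12903 genes tested in the same fit, where 19.3% were lower and 11.6% higher. The median log2 fold change was -0.33 for the 46 genes and -0.11 for all genes. The MS023 and DMSO samples did not overlap for 35 of the 46 genes, 28 of them lower and 7 higher, and over all genes this was so for 59.5%, with 36.3% lower and 23.2% higher. Under median-ratio scaling and under quantile normalization of the samples 16 of the 46 were lower and 4 higher. Of all genes 30.1% were called under each, while the lower share of all calls moved from 62.4% to 48.3% and 49.9%. For each of the 17 lowered genes, all 3 MS023 samples also lay below all 9 other samples of the series. For 2 of the 3 raised genes they lay above all 9. No share over all genes was computed for this, and these genes had been picked as differing from DMSO. PRMT1-KO changed none of the 46 at the same thresholds (values below), and 0.781% of 12285 genes were called in that fit. In bulk RNA a smaller share of cells in a phase of the cycle and less mRNA per cell cannot be told apart.

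**Figure D1:**
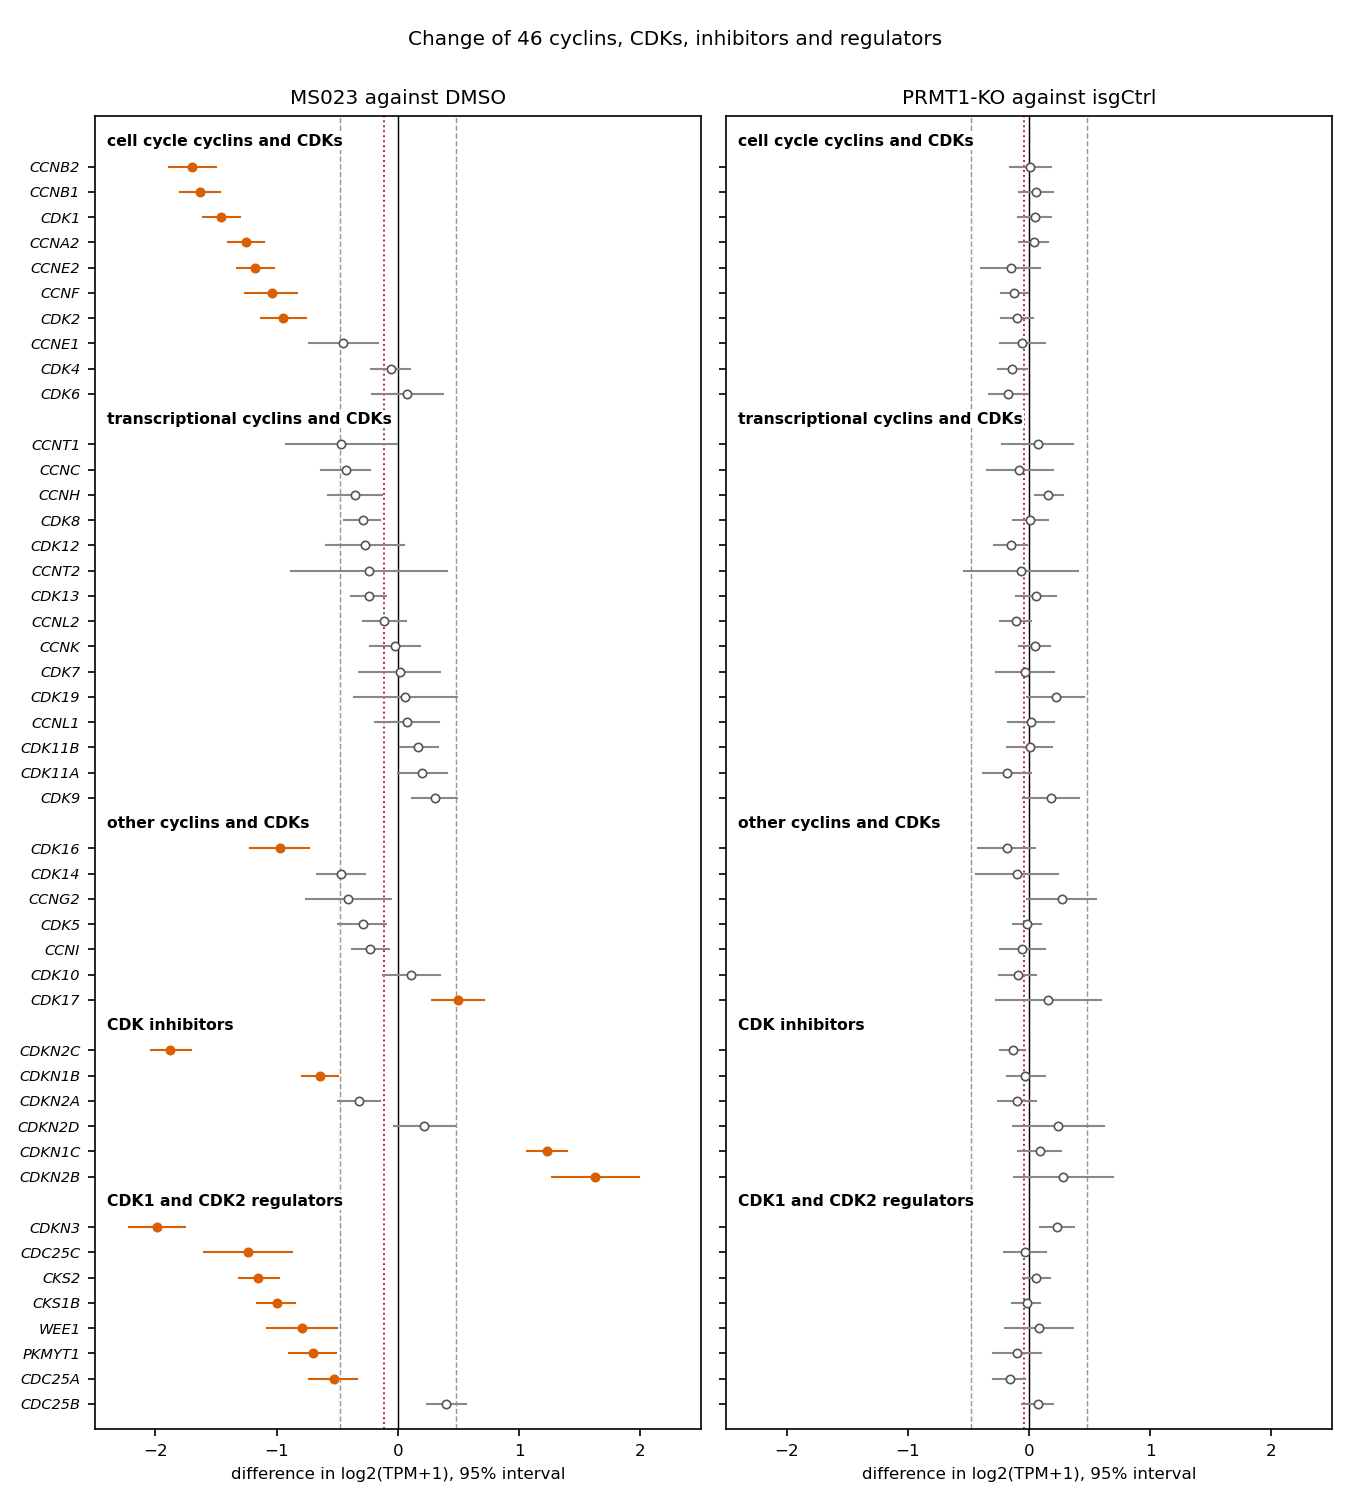
Difference in log2(TPM+1) with its 95% interval for 46 genes by class, MS023 against DMSO on the left and PRMT1-KO against isgCtrl on the right. Filled orange points were called, dashed grey lines mark 0.48 in both directions and the dotted red line is the median of all genes tested (-0.11 and -0.04). On the left 7 cell cycle genes lie between -1.70 and -0.95 and no transcriptional gene is filled, and on the right no point is filled.

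Promoters of the lowered genes were searched for 3 short elements known from cell cycle genes. These were the CHR (TTTGAA), the CCAAT box (CCAAT) and E2F sites (TTGGCGC or TTCGCGC or TTCCCGC), on both strands, in the 300 bases from 250 before to 50 after each RefSeq start in GRCh38.p14. A promoter was listed for 42 of the 47 genes, and CCNE2, CDK2, CDKN1C, PKMYT1 and WEE1 had no entry. Of 35116 promoters in the table, 15.2% held a CHR, 34.6% a CCAAT box and 11% an E2F site. Counting a gene when any of its listed promoters held the element, a CCAAT box was found for 13 of the 13 lowered genes listed, 0 of 2 raised genes and 9 of 26 genes not called, against 39.7% of all 27305 genes with a promoter. An E2F site was found for 6 of 13 lowered, 0 of 2 raised and 5 of 26 genes not called, against 13.1% of all, and a CHR for 7, 0 and 3 of them, against 18.2%. A CHR and a CCAAT box together were found for the same 7 of the 13 lowered genes (CCNB2, CCNF, CDC25C, CDK1, CDKN3, CKS1B and CKS2), for 0 of 2 raised genes and for 2 of 26 genes not called (CCNC and CDK19). Over all genes with a promoter, 7.26% held both. This background was not limited to genes above the level for testing, which every lowered, raised or not called gene had passed. How far this bears on the shares was not tested. A gene with several promoters listed has more chances to be counted. In CDC25C, CDK16 and CDKN2C each element found lay in only some of the promoters listed. A match is a run of letters and not a measured binding site. Spellings other than those given were not searched, so a gene without a match may still hold a form of the element. The 120 bases before the start are shown for CCNB2, CKS1B and CKS2, which hold both elements and fell. They are also shown for CCNB1, which fell and holds CCAAT boxes and an E2F site outside the bases shown, but no TTTGAA on either strand. CDKN2B, which rose and matches none of the 3, is shown as well. Capitals mark the elements.
CCNB2, chr15:59105026-59105145, plus strand: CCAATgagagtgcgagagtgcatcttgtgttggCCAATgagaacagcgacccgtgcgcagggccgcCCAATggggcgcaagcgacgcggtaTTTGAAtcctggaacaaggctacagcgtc
CKS1B, chr1:154974561-154974680, plus strand: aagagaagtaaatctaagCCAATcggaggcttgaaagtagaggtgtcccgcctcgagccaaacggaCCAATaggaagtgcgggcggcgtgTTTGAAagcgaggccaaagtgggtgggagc
CKS2, chr9:89311075-89311194, plus strand: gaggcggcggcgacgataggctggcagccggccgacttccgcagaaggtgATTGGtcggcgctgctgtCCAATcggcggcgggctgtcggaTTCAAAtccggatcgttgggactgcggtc
CCNB1, chr5:69167030-69167149, plus strand: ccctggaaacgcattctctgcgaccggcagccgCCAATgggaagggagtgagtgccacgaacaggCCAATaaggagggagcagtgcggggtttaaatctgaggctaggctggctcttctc
CDKN2B, chr9:22009306-22009425, minus strand: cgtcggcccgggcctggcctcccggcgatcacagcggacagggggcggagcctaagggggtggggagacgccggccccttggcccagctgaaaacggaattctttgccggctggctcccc
In CCNB2, CKS1B and CKS2 the CHR began at -29, -30 and -29 from the start, with a CCAAT box at -54, -54 and -52. In CKS2 the CHR and the farther CCAAT box are on the reverse strand.

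Most of the cell cycle cyclins and CDKs fell with MS023. Of 10 tested, 7 were lower, 0 were higher and 3 were not called. This is 70.0% called, against 30.9% of all genes, and the median log2 fold change was -1.11. Mitotic cyclins moved most. CCNB2, a cyclin B that activates CDK1, was at 53.8, 46.8 and 53.4 TPM in DMSO, 15.6, 15.5 and 14.3 with MS023, 52.9, 51.6 and 52.0 in isgCtrl and 48.5, 52.7 and 56.6 in PRMT1-KO. The 3 MS023 samples stood far below all others, and the other groups overlapped each other. This gave -1.70 on the log2 scale (SE 0.08, limma adjusted p = 8.27e-05). CCNB1, the main mitotic cyclin B, was at 153, 155 and 155 TPM in DMSO, 51.1, 50.5 and 45.8 with MS023, 176, 173 and 185 in isgCtrl and 176, 189.9 and 189 in PRMT1-KO. MS023 samples were again the low ones, at 31.8% of DMSO, and both guide groups lay above DMSO. The log2 fold change with MS023 was -1.63 (SE 0.07, limma adjusted p = 6.16e-05). CCNB1 is on chromosome 5 from 69167135 to 69178245 on the plus strand and CCNB2 on chromosome 15 from 59105126 to 59125045 on the plus strand (GRCh38, GENCODE v44).

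CDK1, the mitotic kinase itself, was at 108, 103 and 97.4 TPM in DMSO and 36.7, 37.2 and 36.3 with MS023. In isgCtrl it was at 73.0, 68.5 and 71.2 TPM, and in PRMT1-KO at 74.9, 69.6 and 75.2. DMSO samples were the highest, the guide groups lay between and overlapped each other, and MS023 samples were the lowest. CDK1 fell by 1.46 with MS023 (SE 0.06, limma adjusted p = 6.8e-05). CCNA2, the cyclin A of S phase and G2, went from 58.4, 57.0 and 56.0 TPM in DMSO to 22.6, 23.9 and 23.9 with MS023, and was at 48.3 to 52.0 for isgCtrl and 51.2 to 52.4 for PRMT1-KO. Here too MS023 samples were the lowest, with a log2 fold change of -1.25 (SE 0.06, limma adjusted p = 8.27e-05). CDK1 lies on chromosome 10 from 60778331 to 60794852 on the plus strand and CCNA2 on chromosome 4 from 121816444 to 121823883 on the minus strand.

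CCNE2, a cyclin E of the G1 to S transition, was at 22.1, 24.1 and 22.6 TPM in DMSO and 9.77, 9.34 and 9.61 with MS023, with 30.5 to 32.2 for isgCtrl and 24.4 to 31.9 for PRMT1-KO. All MS023 samples were under 10 TPM and all others above 20. The change with MS023 was -1.18 (SE 0.06, limma adjusted p = 9.94e-05). CCNF, a cyclin that acts as an F-box protein in a ubiquitin ligase, was at 21.1, 19.3 and 21.2 TPM in DMSO and 8.90, 8.93 and 10.5 with MS023, with 28.5 to 29.5 for isgCtrl and 26.4 to 26.7 for PRMT1-KO. Its groups were ordered MS023, DMSO, PRMT1-KO and isgCtrl from low to high with no overlap. CCNF fell by 1.04 with MS023 (SE 0.09, limma adjusted p = 0.00036). CDK2, the partner of cyclins E and A, was called as well, going from 41.3, 39.1 and 43.6 TPM to 21.1, 19.6 and 22.1 with MS023. Its log2 fold change was -0.95 (SE 0.08, limma adjusted p = 0.000317), and it stood at 47.5 to 49.2 TPM in isgCtrl and 43.0 to 46.9 in PRMT1-KO.

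CDK4, CDK6 and CCNE1 were not called. CDK4, a G1 kinase, was at 182, 168 and 172 TPM in DMSO and 174, 165 and 163 with MS023, so the groups overlapped, with a change of -0.06 and an interval from -0.22 to 0.10. Its sign turned under a median-ratio scaling of the samples, at 0.06. CDK6, the kinase that shares its function, had a change of 0.08 with an interval from -0.21 to 0.37. CCNE1, the other cyclin E, was at 17.5, 17.0 and 22.0 TPM in DMSO and 12.5, 14.6 and 13.4 with MS023. All MS023 samples were below all 9 others, but its log2 fold change of -0.45 missed the fold threshold (limma adjusted p = 0.0216). Of the exon bases of CCNE2, 37.0% overlap INTS8 on the opposite strand, and INTS8 went from 50.7 to 21.6 TPM with MS023. For CDK4 44.2% overlap TSPAN31, which went from 9.83 to 18.0 TPM. The strand setting of the libraries is not given in the sources used here, so reads of such pairs cannot be told apart.

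**Figure D2:**
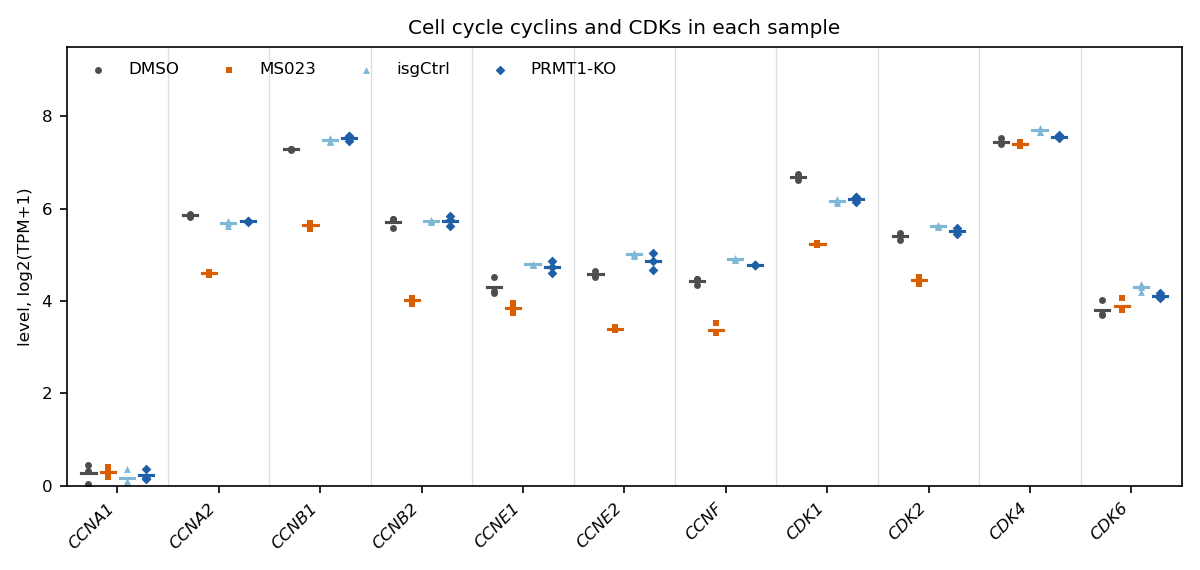
Level in log2(TPM+1) of the 11 cell cycle cyclins and CDKs, with 3 samples (points) and their mean (bar) for each of the 4 groups. MS023 samples are the lowest of the series for CCNA2, CCNB1, CCNB2, CCNE1, CCNE2, CCNF, CDK1 and CDK2, CDK4 and CDK6 show no such gap, and CCNA1 is near 0 in every sample.

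Transcriptional cyclins and CDKs were not called with MS023. Of 15 tested, 0 passed both thresholds, against 30.9% of all genes, and their median log2 fold change was -0.11, equal to that of all genes. Changes ran from -0.47 for CCNT1 to 0.31 for CDK9. An adjusted p under 0.05 without the fold threshold was found for 5 of the 15, against 48.8% of all genes, and an unadjusted p under 0.05 for 7, against 56.5% of all genes in limma. Intervals of single genes reached from -0.92 to 0.49, so a moderate fall of the genes with the widest spread is within them. The median for cell cycle genes was 1.00 below that for transcriptional genes, and leaving out each replicate in turn moved this difference between -1.108 and -0.95. Under a median-ratio scaling of the samples, which moved the median of all genes by 0.107, the medians were -1.0 and 0.01. There 7 of 10 against 0 of 15 were still called, beside 30.1% of all genes.

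By complex, the changes with MS023 were small. The 5 genes with an adjusted p under 0.05 are named here because of their values. CCNC, the cyclin of the Mediator kinase module and the most abundant of the class, was at 101, 86.6 and 92.5 TPM in DMSO and 66.7, 66.6 and 73.4 with MS023. All MS023 samples were below all DMSO samples (-0.43, limma adjusted p = 0.00717), and both guide groups were at 59.1 to 76.4 TPM. Its kinase CDK8 went the same way by less (-0.29, limma adjusted p = 0.00832), from 16.6 to 17.2 TPM in DMSO to 13.3 to 14 with MS023. CDK19, the paralog of CDK8, had a change of 0.06 at 0.989 to 2.19 TPM in DMSO.

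In the CDK-activating kinase, which phosphorylates both cell cycle CDKs and RNA polymerase II, CCNH was at 62.1, 58.6 and 58.1 TPM in DMSO and 52.5, 43.9 and 43.5 with MS023. It was lower in every MS023 sample (-0.35, limma adjusted p = 0.0221), while its kinase CDK7 had a change of 0.02 with an interval from -0.32 to 0.35. CDK9, the kinase of the elongation factor P-TEFb, was at 31.5, 34.0 and 30.9 TPM in DMSO and 42.2, 37.4 and 40.7 with MS023. Every MS023 sample was above every DMSO sample (0.31, limma adjusted p = 0.0179). Its cyclins CCNT1 and CCNT2 had changes of -0.47 and -0.24 (limma adjusted p = 0.0814 and 0.482), at 3.79 to 10.7 TPM in these 6 samples. CCNK, the cyclin of the elongation kinases CDK12 and CDK13, had a change of -0.02 that turned to 0.10 under both scalings of the samples. CDK13 changed by -0.24 (limma adjusted p = 0.0159) and CDK12 by -0.27 (limma adjusted p = 0.138). Of the exon bases of CCNK, 59.5% overlap CCDC85C on the opposite strand, which went from 20.2 to 11.2 TPM with MS023.

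CCNL1 and CCNL2, cyclins of the splicing-linked CDK11 kinases, had changes of 0.08 and -0.11, and CCNL2 turned to 0.01 under median-ratio scaling. CDK11A and CDK11B are near-identical neighbours on chromosome 1. Of the runs of 31 bases in their transcripts, 56.8% and 64.8% occur in another gene as well, so their separate values are uncertain. For CDK11A 44.3% of the runs occur in ENSG00000268575, which overlaps 48.1% of its exon bases on the same strand, so the sum of CDK11A and CDK11B is uncertain too. Summed, CDK11A and CDK11B were at 70.7 ± 1.87 TPM in DMSO, 80.7 ± 1.44 with MS023, 86.3 ± 4.13 for isgCtrl and 82.3 ± 1.34 for PRMT1-KO (mean ± SD, 3 samples per group). The fitted changes were 0.20 for CDK11A and 0.17 for CDK11B (limma adjusted p = 0.0887 and 0.0583).

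**Figure D3:**
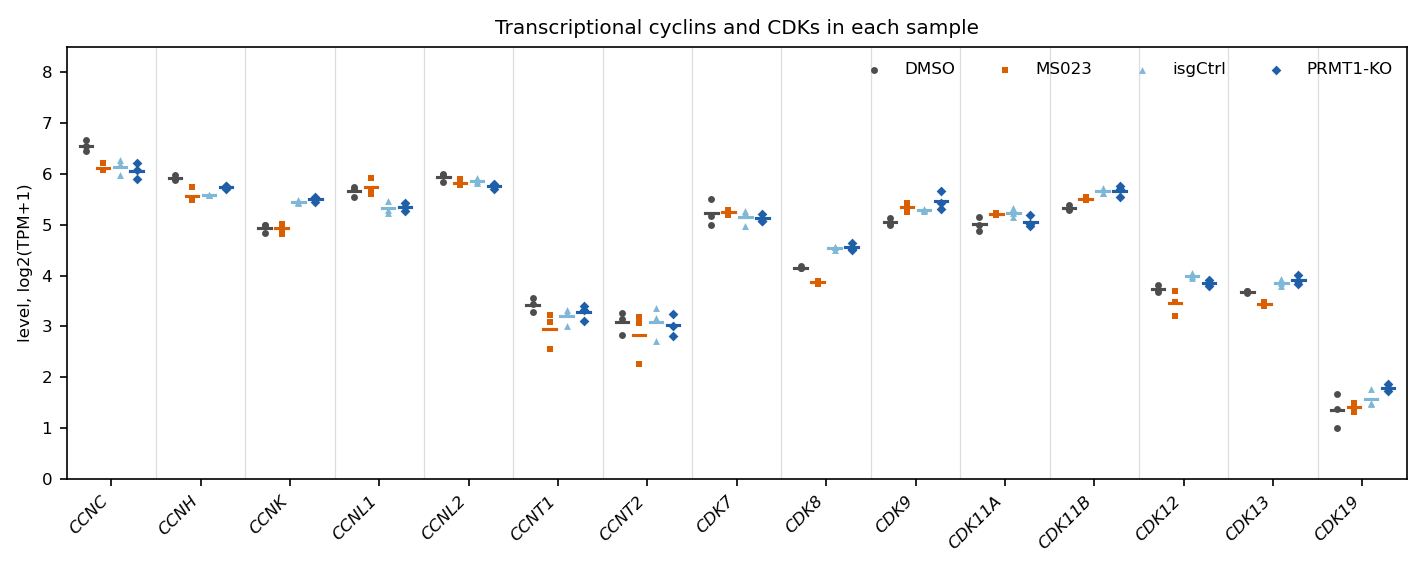
Level in log2(TPM+1) of the 15 transcriptional cyclins and CDKs, with 3 samples (points) and their mean (bar) for each of the 4 groups. All 3 MS023 samples lie below DMSO for CCNC, CCNH, CCNT1, CDK8 and CDK13 and above it for CDK9, CDK11A and CDK11B, by less than 0.48 in the group means.

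The CDK inhibitors moved in both directions with MS023, with 2 of 6 lower and 2 higher. This is 66.7% called, against 30.9% of all genes (19.3% lower and 11.6% higher). CDKN2C, the INK4 inhibitor of CDK4 and CDK6 known as p18, had the largest fall of the class. It was at 268, 275 and 284 TPM in DMSO, 74.7, 77.8 and 70.8 with MS023, 364, 358 and 359 in isgCtrl and 326, 329 and 328 in PRMT1-KO. MS023 samples held 27.0% of the DMSO level, and the guide groups were above DMSO and apart from each other. The log2 fold change with MS023 was -1.88 (SE 0.07, limma adjusted p = 5.52e-05). CDKN2B, the INK4 inhibitor p15, was the reverse. It was at 1.30, 2.31 and 2.13 TPM in DMSO, 8.20, 7.53 and 8.06 with MS023, 1.11 to 1.85 for isgCtrl and 1.48 to 2.54 for PRMT1-KO. All 3 MS023 samples were above 7 TPM and no other sample reached 3, which gave 1.63 on the log2 scale (SE 0.15, limma adjusted p = 0.000468).

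CDKN1C, the Cip/Kip inhibitor p57, was at 7.20, 7.18 and 7.82 TPM in DMSO, 19.4, 17.8 and 18.9 with MS023, 6.99 to 7.17 for isgCtrl and 7.04 to 8.40 for PRMT1-KO. Its MS023 samples stood above all others, at 253% of DMSO, and its log2 fold change was 1.23 (SE 0.07, limma adjusted p = 0.000109). CDKN1B, the Cip/Kip inhibitor p27, fell instead. It was at 62.3, 61.9 and 63.5 TPM in DMSO and 41.0, 38.4 and 40.0 with MS023, with 54.5 to 62.5 across both guide groups. The MS023 samples were the lowest of the series, and CDKN1B fell by 0.64 (SE 0.06, limma adjusted p = 0.000527). CDKN2A and CDKN2D were not called. CDKN2A, whose row sums the transcripts of an INK4 inhibitor and of ARF, was at 130, 145 and 142 TPM in DMSO and 112, 109 and 112 with MS023 (-0.32, limma adjusted p = 0.0107), and at 196 to 237 in the guide groups. CDKN2D, the INK4 inhibitor p19, had a change of 0.22 (limma adjusted p = 0.122). CDKN2C lies on chromosome 1 from 50960745 to 50974634, CDKN2B on chromosome 9 from 22002903 to 22009305 and CDKN1C on chromosome 11 from 2883213 to 2885775.

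Of the 8 regulators of CDK1 and CDK2, 7 were lower with MS023 and 1 was not called, with a median of -0.90. This is 87.5% called, against 30.9% of all genes. CDKN3, a phosphatase that acts on CDKs, changed most of all 46 genes. It was at 94.3, 110.0 and 97.5 TPM in DMSO, 26.5, 24.7 and 22.5 with MS023, 85.8, 81.6 and 81.2 in isgCtrl and 99.9, 92.6 and 101 in PRMT1-KO. MS023 samples held 24.4% of DMSO, and its log2 fold change was -1.99 (SE 0.09, limma adjusted p = 7.97e-05). CKS1B and CKS2 are the small subunits that bind CDKs, and the promoter windows of both are printed above. CKS1B went from 506, 549 and 529 TPM in DMSO to 267, 264 and 258 with MS023, and was at 476 to 487 for isgCtrl and 463 to 487 for PRMT1-KO. Its MS023 samples were near one level and the other 9 lay well above (-1.0, SE 0.06, limma adjusted p = 0.000142). CKS2 went from 463, 494 and 488 TPM to 213, 229 and 210, with 333 to 345 for isgCtrl and 350 to 357 for PRMT1-KO. All 4 groups of CKS2 were apart, with MS023 the lowest (-1.15, SE 0.07, limma adjusted p = 0.000125). Runs of 31 bases shared with other genes were 12.7% for CKS1B and 8.70% for CKS2.

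The CDC25 phosphatases, which activate CDKs, did not move together. CDC25C, which acts at mitosis, was at 9.80, 8.14 and 8.04 TPM in DMSO and 4.03, 2.65 and 2.71 with MS023, with 5.92 to 7.04 across the guide groups. Its MS023 samples were the lowest, and CDC25C fell by 1.24 (SE 0.15, limma adjusted p = 0.00129). CDC25A, which acts at the G1 to S transition, went from 25.3, 26.9 and 29.1 TPM to 19.4, 17.3 and 18.4. The groups did not overlap (-0.53, limma adjusted p = 0.00289), but under median-ratio and quantile scaling its change was -0.42 and -0.38, short of the threshold. CDC25B went the other way, from 46.1, 47.8 and 45.1 TPM to 60.4, 59.1 and 65.0. It rose in every MS023 sample by an amount under the fold threshold (0.40, limma adjusted p = 0.00424), and passed it under both scalings at 0.52 and 0.49.

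Both inhibitory kinases fell. WEE1, which phosphorylates CDK1 in the nucleus, was at 14.9, 13.4 and 17.4 TPM in DMSO and 7.60, 8.16 and 9.32 with MS023, with 12.7 to 17.3 across the guide groups. The MS023 samples were the lowest (-0.79, SE 0.12, limma adjusted p = 0.00285). PKMYT1, its membrane-bound relative, was at 68.9, 73.3 and 72.0 TPM in DMSO and 44.3, 46.8 and 39.5 with MS023, with 73.6 to 92.0 across the guide groups. It also had no overlap (-0.70, SE 0.08, limma adjusted p = 0.0011). PKMYT1 shares 24.7% of its exon bases with PAQR4 on the opposite strand, which went from 41.5 to 15.2 TPM.

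**Figure D4:**
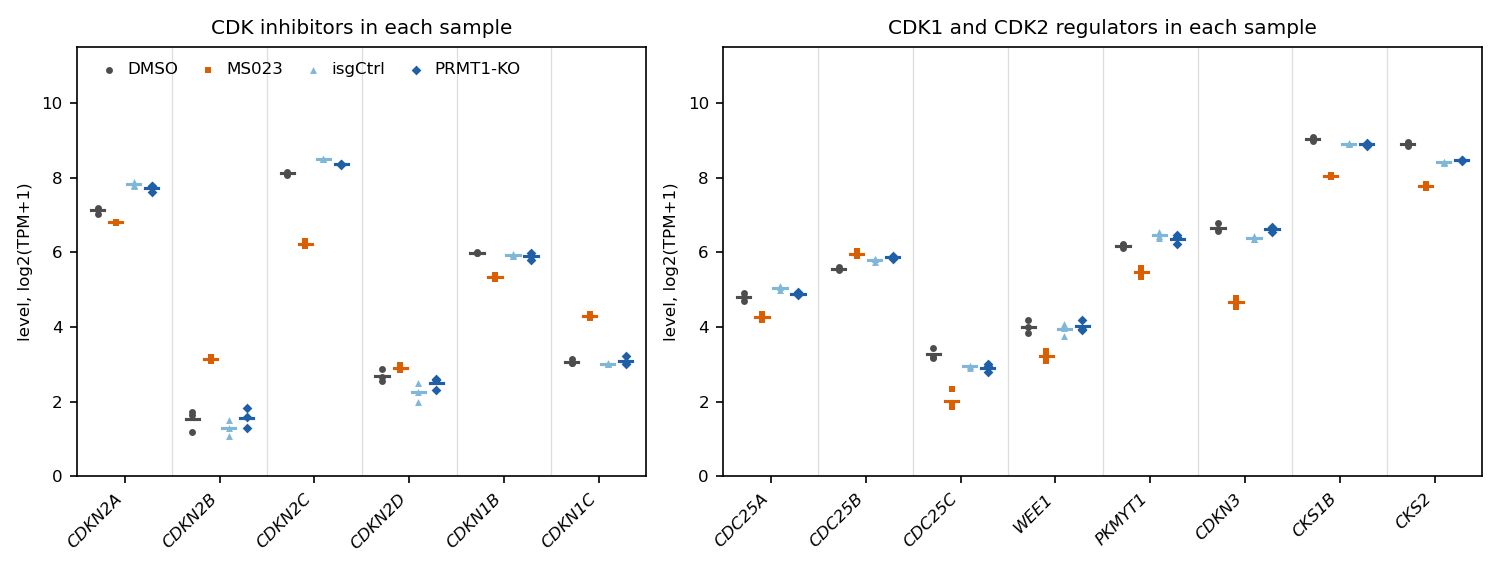
Level in log2(TPM+1) of the 6 CDK inhibitors (left) and 8 CDK1 and CDK2 regulators (right), with 3 samples (points) and their mean (bar) for each of the 4 groups. MS023 samples are the highest of the series for CDKN2B, CDKN1C and, narrowly, CDC25B. They are the lowest for CDKN2A, CDKN2C, CDKN1B and 7 regulators.

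Among the 7 other cyclins and CDKs, 1 was lower, 1 was higher and 5 were not called, so that 28.6% were called, near the 30.9% of all genes. CDK16, a kinase linked to vesicle transport and differentiation, was at 33.7, 37.4 and 38.6 TPM in DMSO and 18.9, 15.9 and 19.6 with MS023, with 24.9 to 33.4 across the guide groups. MS023 samples were the lowest, and CDK16 fell by 0.97 (SE 0.10, limma adjusted p = 0.000772). Its relative CDK17 was at 6.12, 6.64 and 5.35 TPM in DMSO and 9.18, 8.46 and 9.12 with MS023, and reached 10.7 in 1 PRMT1-KO sample. Its change of 0.50 (limma adjusted p = 0.00525) just passed the fold threshold, and was 0.43 without DMSO replicate 3 and 0.48, just under the threshold, without MS023 replicate 1. CDK14, CCNI and CDK5 had the highest levels of those not called, with changes of -0.47, -0.23 and -0.29 and adjusted p of 0.00499, 0.0271 and 0.0244 in limma. CCNG2, an atypical cyclin, had -0.41 (limma adjusted p = 0.057) and CDK10 had 0.11 (limma adjusted p = 0.359).

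Genes that act with these kinases were read from 2 lists. Among 16 tested partners of the cell cycle CDKs, 6 were lower and 1 was higher with MS023, or 43.8% against 30.9% of all genes, with a median of -0.31. CDC20, the activator of the anaphase-promoting complex, went from 160, 163 and 159 TPM to 51.2, 51.6 and 52.9 (-1.61, SE 0.06, limma adjusted p = 5.52e-05). SKP2, the F-box protein that works with CKS1B on p27, went from 54.1, 51.7 and 53.8 TPM to 19.5, 17.8 and 19.9 (-1.44, SE 0.07, limma adjusted p = 8.27e-05). FBXO5, an inhibitor of the anaphase-promoting complex, had -1.37 (limma adjusted p = 0.000204) and CDK2AP2, a CDK2-associated protein, had 0.53 (limma adjusted p = 0.00447). These 3 lowered partners, named for their large changes, had no overlap between MS023 and DMSO, as was so for 59.5% of all genes. In 12 tested partners of the transcriptional CDKs, 3 were lower and 1 was higher, with a median of -0.03, and these 33.3% are near the share of all genes. HEXIM1, an inhibitor of P-TEFb, rose from 22.2, 21.9 and 23.9 TPM to 31.8, 32.6 and 34.5 (0.52, limma adjusted p = 0.00171), while its relative HEXIM2 fell by 0.87 (limma adjusted p = 0.00398). MED12 of the Mediator kinase module and MNAT1 of the CDK-activating kinase each fell by 0.57 (limma adjusted p = 0.00522 and 0.0129). CDC14B and MED12L were below the level for testing.

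Knockout of PRMT1 changed none of the 46 genes at the thresholds. In limma the adjusted p was under 0.05 for 0 genes, and the unadjusted p for 8 of the 46 (18.6% of all genes), while 0.781% of all genes passed both thresholds. Changes ran from -0.18 to 0.28 with a median of -0.02, beside -0.04 for all genes, and the 95% intervals reached from -0.54 to 0.69. The isgCtrl and PRMT1-KO samples did not overlap for 14 of the 46, against 26.7% of all genes. The median was -0.08 for cell cycle and 0.01 for transcriptional genes, a difference of -0.09 that ran from -0.121 to -0.062 when each replicate was left out. For the 17 genes lowered by MS023, the changes in PRMT1-KO ran from -0.18 to 0.23 and no 95% interval went below -0.42.

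The 3 genes with the lowest unadjusted p in the knockout did not share a direction. CDKN3 was higher in each PRMT1-KO sample (92.6 to 101 TPM) than in each isgCtrl sample (81.2 to 85.8 TPM), with a change of 0.23 (SE 0.06, limma adjusted p = 0.125). With MS023 the same gene fell most of the 46. CCNH was at 47.1, 46.9 and 46.8 TPM in isgCtrl and 51.0, 53.6 and 53.5 in PRMT1-KO, with no overlap and a change of 0.16 (SE 0.05, limma adjusted p = 0.163). CDKN2C was lower in each knockout sample, with a change of -0.13 (SE 0.04, limma adjusted p = 0.199) and an interval from -0.24 to -0.03.

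The effects of MS023 and PRMT1-KO, each against its own control, differed for 20 of the 46 genes in a fit of all 12 samples. The difference was lower for 18 and higher for 2, and over all 13256 genes tested 24.4% differed, 14.7% lower and 9.69% higher. CDKN3 differed most, by -2.23 (SE 0.11, limma adjusted p = 7.33e-07), followed by CDKN2C at -1.74, CCNB2 at -1.70 and CCNB1 at -1.69. In the other direction were CDKN2B at 1.35 (SE 0.24, limma adjusted p = 0.00156) and CDKN1C at 1.15 (SE 0.09, limma adjusted p = 1.35e-05). By class, 7 of 10 cell cycle genes and 1 of 15 transcriptional genes differed. The transcriptional gene was CCNH at -0.52 (SE 0.10, limma adjusted p = 0.00299). Under median-ratio scaling and quantile normalization 0 of the 15 differed, against 24.4% and 24.5% of all genes.

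The 2 control groups were not alike. Cas9, the guide vector, its selection, doxycycline and the vehicle differ together between isgCtrl and DMSO and cannot be told apart. Of the 46 genes 6 were called, or 13.0%, which is near the 13.9% of all 12661 genes tested. CDKN2A (0.70), CCNK (0.51) and CCNE1 (0.49) were higher in isgCtrl, with adjusted p of 0.0017, 0.00344 and 0.0164 in limma. CCNG2 (-0.61), CDK1 (-0.53) and CKS2 (-0.50) were lower, with adjusted p of 0.0105, 0.00277 and 0.00216 in limma. CCDC85C, which overlaps 59.5% of the exon bases of CCNK on the opposite strand, was at 20.2 TPM in DMSO and 29.8 in isgCtrl. Reads of this pair cannot be told apart here. Of the samples, CDKN2A stood at 219, 237 and 223 TPM in isgCtrl, all above the 130 to 145 TPM of DMSO. Under median-ratio scaling 1 was higher and 3 lower (12.8% of all genes called), and under quantile normalization 1 was higher and 4 lower (13.1%). Without DMSO replicate 2 the counts were also 1 higher and 3 lower, with 12.8% of all genes called.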

How the data were processed

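RNA of 12 JJN3 samples was sequenced, with over 60000000 read pairs per sample stated in the labels. Per the paper's methods and the submitters' processing notes, the authors checked reads with FastQC, trimmed them with Trimmomatic, aligned them to hg38 with STAR and quantified them with Salmon, and they deposited gene values in log2(TPM+1). Since TPM is scaled to 1 fixed total, depth is unknown from these values and no count model was used. The 47 genes and all lists were chosen with earlier results of these data known.

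The deposited log2(TPM+1) values were fitted by limma 3.58.1 in R 4.3.3 (eBayes without trend) for MS023 against DMSO, PRMT1-KO against isgCtrl and isgCtrl against DMSO, on 6 samples each, and for the difference of the first 2 effects on all 12. Genes with a group mean above 1 were tested and p was adjusted by Benjamini-Hochberg over all of them. A call needed a log2 fold change beyond 0.48 in either direction and an adjusted p below 0.05, the thresholds of the study. For PRMT1-KO the paper's count was close to the 96 called here, but its count for MS023 was far smaller than the 3986 called here. The shares of all genes are therefore those of this fit, and the cause of the gap was not tested. Values in TPM were computed as 2 to the power of the deposited value minus 1. The code was tested on simulated data. Alternatives were quantile normalization or median-ratio scaling of the samples, a pseudocount of 0.1, other filters on low values, other thresholds, a trend in eBayes, a replicate block, a joint fit of the 4 groups and fits without each replicate.

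Genes named were, by class, those called with MS023 with the largest changes (up to 6 per direction), the 3 of lowest unadjusted p in PRMT1-KO, those with the largest difference between the effects (up to 4 per direction), up to 3 of the highest level among those not called, and up to 3 partners per direction. Other members are named to account for the list. Positions and exon overlaps are from GENCODE v44 on GRCh38, and promoters from RefSeq GRCh38.p14.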

Additional observations from a re-analysis of the deposited data

Results flagged for a closer look

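The effect of MS023 and the effect of PRMT1-KO differed for 20 genes in the limma fit of all 12 samples, by more than 0.48 on the log2 scale with an adjusted p (Benjamini-Hochberg) below 0.05. As MS023 effect minus PRMT1-KO effect, the cell cycle cyclins and CDKs stood at -1.70 for CCNB2, -1.69 for CCNB1, -1.50 for CDK1, -1.29 for CCNA2, -1.02 for CCNE2, -0.93 for CCNF and -0.84 for CDK2. Among the regulators, CDKN3 was at -2.23, CKS2 at -1.21, CDC25C at -1.20, CKS1B at -0.98, WEE1 at -0.87 and PKMYT1 at -0.61. The inhibitors split, with CDKN2C at -1.74 and CDKN1B at -0.61, and with CDKN1C at 1.15 and CDKN2B at 1.35. The remaining ones were CDK16 at -0.79, CCNG2 at -0.68 and CCNH at -0.52. CCNG2 and CCNH were not called in either comparison alone.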

How the results depend on the processing

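For the 20 genes called with MS023, 276 values under alternative settings kept direction and side of the threshold and 4 kept the direction only. These 4 were CDC25A under both scalings and CDK17 without DMSO replicate 3 or MS023 replicate 1. With no fold threshold the calls were 31 with MS023 (48.8% of all genes) and 25 for isgCtrl against DMSO (34.5% of all genes). With an absolute log2 fold change above 1 they were 13 and 0 (8.39% and 2.91% of all genes) and, for the difference of effects, 11 (6.95%). Leaving out 1 replicate gave 19 to 22 calls with MS023, 4 to 7 between the controls and 19 to 21 for the difference. Of all genes, 28.7% to 30.6%, 12.8% to 14.6% and 22.6% to 24.1% were called in the same fits. In PRMT1-KO these fits called 0 members but only 2 to 21 of all genes, against 96 with all replicates, so they say nothing about the stability of the 0.

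The cell cycle minus transcriptional median with MS023 (-1.003) was -0.936 with all genes above 0, -0.937 with values above 1 in every sample, -1.072 with a pseudocount of 0.1, -0.951 after quantile normalization and -0.95 to -1.108 with 1 replicate left out. In PRMT1-KO (-0.091) it was -0.067 with all genes above 0 and -0.121 to -0.062 with 1 replicate left out. The filters change which genes enter a class, and the cause of the other shifts was not tested. Deviations of same-numbered MS023 and DMSO samples from their group means correlated at 0.021, 0.073 and 0.102, and those of PRMT1-KO and isgCtrl at -0.142, 0.07 and -0.07, so the replicate numbers were not taken to pair samples. The replicate block gave 20, 6 and 20 calls, as without it, for MS023, the controls and the difference. Of all genes it called 31.1%, 12.5% and 24.3%. In PRMT1-KO the block called 0 of all 12285 genes, PRMT1 included, so its 0 members say nothing. Unknown depth limits what can be said of genes at a few TPM, and 3 samples per group limit every interval.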
